A study of Mus musculus with 14 samples.

Results

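The 14 hippocampal libraries of the series were divided into 6 Ttr-rich and 8 Ttr-poor libraries, whatever the oxygen exposure of the mouse. The division was defined by a measured value, the raw count of Ttr, which encodes transthyretin, the thyroid hormone carrier secreted by the choroid plexus. Libraries with a count of at least 10000 were rich and the others were poor. Male wild-type C57BL/6J mice, 8 weeks old at the start, were kept for 28 days in 1 of 3 conditions. Control mice (4 libraries) breathed 21% oxygen. IH mice (intermittent hypoxia, 5 libraries) were given, for 8 h of each day, oxygen that fell to 10% and returned to 21% once every 2 min. SH mice (sustained hypoxia, 5 libraries) breathed 10% oxygen for 8 h per day. The control libraries came from a preliminary experiment, so that the experiment and the absence of hypoxia cannot be told apart in them.

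The choroid plexus is a folded tissue in the brain ventricles, and that of the lateral ventricle lies against the hippocampus. Its epithelium secretes the cerebrospinal fluid with the help of ion channels, bicarbonate and other transporters and water channels, and is sealed by tight junctions. It also releases carrier proteins and growth factors into the fluid, rests on a basement membrane around leaky capillaries and carries tufts of cilia. In RNA from whole tissue, more choroid plexus cells and more RNA per choroid plexus cell cannot be told apart.

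The raw Ttr count was 1021, 1284, 341 and 71380 in control replicates 1 to 4. It was 36737, 1063, 710, 39561 and 3169 in IH replicates 1 to 5, and 55126, 20811, 430, 540 and 16704 in SH replicates 1 to 5. The rich libraries were therefore control replicate 4, IH replicates 1 and 4, and SH replicates 1, 2 and 5, which is 1 of 4 control, 2 of 5 IH and 3 of 5 SH libraries. The lowest rich library was SH replicate 5 with 16704 and the highest poor library was IH replicate 5 with 3169. Ttr took between 0.169% and 0.855% of the counts in rich libraries (median 0.449%) and between 0.00290% and 0.0300% in poor ones. Since Ttr chose the libraries, its own difference was not tested.

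The total count was between 8352360 and 10480800 in rich libraries and between 7203660 and 11777100 in poor ones, and no difference was detected between them (exact permutation test, 2-sided, p = 0.918). All values below are normalized counts, that is, counts divided by the scaled library size relative to its mean. Of 7756 deposited genes, 7338 reached an average of 40 counts in each of the oxygen groups, and 7337 were left without Ttr. Rich and poor libraries were compared with edgeR's quasi-likelihood test with the oxygen group as a covariate and Benjamini-Hochberg adjustment. Because the libraries were grouped by a measured count, a p-value here says how closely a gene followed Ttr and is no test of a treatment.

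**Figure D1:**
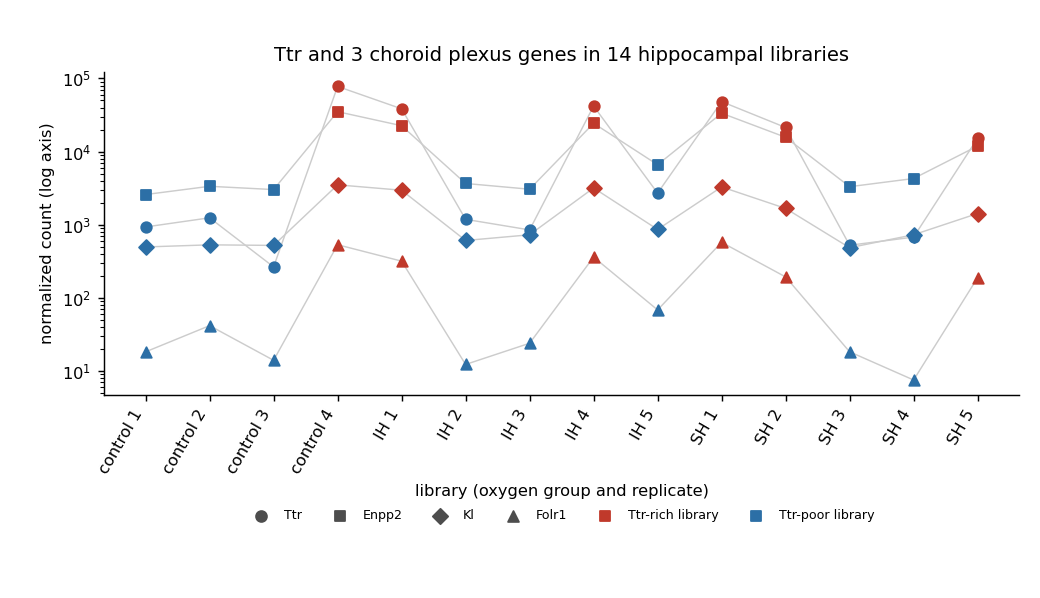
Normalized counts (log axis) of Ttr, Enpp2, Kl and Folr1 in each of the 14 libraries, with rich libraries in red and poor ones in blue. For Enpp2 and Kl all 6 rich libraries lie above all 8 poor ones, and so do those of Ttr, which defined the division, and of Folr1, which was tested only with the help of rich libraries. Among poor libraries the order of the genes differs.

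Genes of choroid plexus epithelium rose in the rich libraries, and almost nothing fell. At an adjusted p under 0.05, 84 genes were higher in rich libraries (1.14% of those tested) and 1 was lower (0.0136%). Of the 84, 61 differed by more than 2-fold and 13 by more than 8-fold, but 26 of the 84 passed the limit of 40 counts only with the help of rich libraries, as described below. Of the other 58, 35 differed by more than 2-fold and 3, Mfrp, Clic6 and Abca4, by more than 8-fold. The lowest rich library lay above the highest poor library for 51 of all genes (0.695%), of which 49 were among the 84 and 31 among the 58. The opposite order was seen for 3 genes (0.0409%), C1qtnf5, Ell3 and Coil. All 85 genes had the same direction within the control, IH and SH libraries taken separately, against 28.0% of all genes tested. This follows in large part from their choice in the same libraries, and the rich side of the control group was 1 library.

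Control replicate 4 was the only rich control library, and part of the count rested on it. Without it, 24 genes were higher, and 23 of the 85 were no longer tested because their mean in the control group dropped under 40. With the same genes kept, 41 were higher. In the IH and SH libraries alone, which came from 1 experiment, 32 genes were higher, all of them among the 84. A mean of at least 40 in every group was reached only with the help of rich libraries by 26 of the 85 genes (171 of all genes kept). They were Slc4a5, Kcnj13, Kcne2, Aqp1, Folr1, Trpv4, Slc16a8, Slc16a12, F5, Ecrg4, Pon3, Tmem72, Lepr, Cldn2, Krt18, Baiap2l1, Otx2, Rbm47, Col8a1, Col4a3, Col4a4, Mycbpap, Ltc4s, Calml4, Wdr86 and Prr32. Such genes had to be higher in the rich libraries of some group in order to be tested, so their differences and lack of overlap are given below as a description only.

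**Figure D2:**
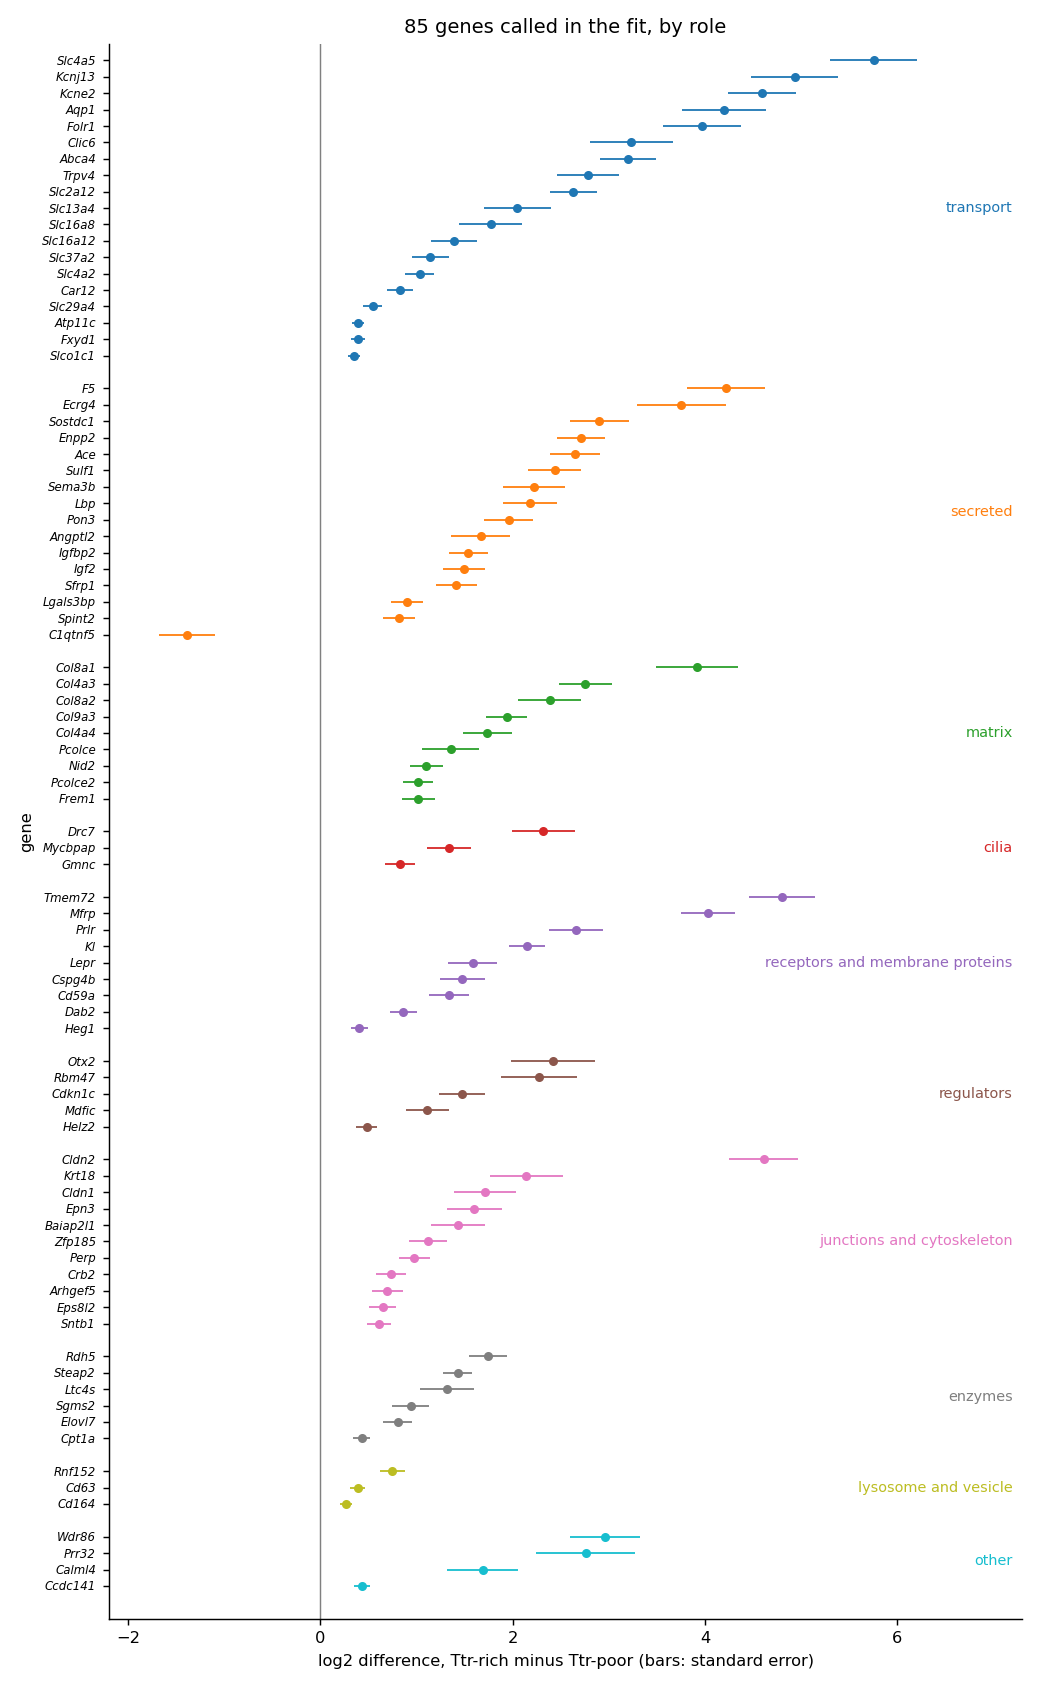
Log2 difference between rich and poor libraries (points) with its standard error (bars) for the 85 genes that passed the test, grouped by role. The points lie between 0.27 for Cd164 and 5.75 for Slc4a5, except that of C1qtnf5 at -1.38.

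The label of the libraries was compared with a list of markers of choroid plexus epithelium. The list was written with earlier results of these data known, so it gives no independent check of the label. Other than Ttr it held 31 markers, of which 27 were tested. Of these, 14 had reached the limit of 40 only with the help of rich libraries and were set aside for this comparison. Of the other 13, all were higher in rich libraries in value and 11 passed the test, with a median log2 difference of 2.15, against -0.01 over all genes. With the 14 included, 25 of 27 passed and the median was 2.78. The 2 that did not pass were Msx1, a homeobox gene of the dorsal midline (log2 difference 1.06 ± 0.25 SE, adjusted p = 0.0628), and Htr2c, the serotonin 2C receptor (0.73 ± 0.23, adjusted p = 0.317). Htr2c is also used by neurons. Their counts overlapped, with Htr2c between 741.6 and 1786 in rich and between 486.2 and 1375 in poor libraries. The summed count of the 13 markers was between 18632 and 54278 in rich libraries (median 38223) and between 6191 and 10984 in poor ones (median 7062). Enpp2 was a large part of it, and without Enpp2 the sum of the other 12 was between 6740 and 19198 in rich (median 14778) and between 3174 and 4972 in poor libraries (median 3561).

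Transporters and channels made up 19 of the 85 genes. Those with the largest differences, Slc4a5, Kcnj13, Kcne2 and Aqp1, were tested only with the help of rich libraries. Slc4a5, an electrogenic sodium bicarbonate cotransporter of the apical membrane, was between 207.7 and 750.8 in rich libraries (median 445.8) and between 0 and 21.3 in poor ones (median 7.99). The lowest rich library, SH replicate 5, was far above the highest poor library, IH replicate 5. The log2 difference was 5.75 ± 0.45 SE, and it was 7.78 within the control, 5.27 within the IH and 5.37 within the SH libraries. Kcnj13, an inwardly rectifying potassium channel, was between 171.3 and 575.6 in rich libraries (median 415.0) and between 0 and 37.5 in poor ones (median 13.4), a log2 difference of 4.93 ± 0.45. Kcne2, a potassium channel subunit, was between 105.7 and 429.8 (median 279.4) against 3.64 to 28.2 (median 14.5), a log2 difference of 4.59 ± 0.35. The groups did not overlap for either channel gene.

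The water channel Aqp1 was between 179.3 and 618.1 in rich libraries (median 258.2) and between 3.10 and 41.2 in poor ones (median 17.0), a log2 difference of 4.20 ± 0.44. Folr1, the receptor that carries folate into the cerebrospinal fluid, was between 187.7 and 573.1 (median 338.2) against 7.50 to 68.1 (median 18.2), a difference of 3.97 ± 0.41. Here too the rich libraries were all above the poor ones, and IH replicate 5 was the highest poor library for Folr1. Clic6, a chloride intracellular channel protein, was between 525.7 and 1658 (median 1263) against 30.4 to 430.0 (median 104.7). The 430.0 of IH replicate 5 was close to the 525.7 of SH replicate 5, whereas the other poor libraries were at or under 171.2.

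Of the remaining transport genes, Abca4, a lipid transporter of the ABC family (log2 difference 3.20), Trpv4, a calcium channel opened by osmotic stimuli (2.78), Slc2a12, a glucose transporter (2.63), and Slc13a4, a sulfate transporter (2.05), differed by more than 4-fold without overlap. Within the SH libraries the log2 difference of Slc13a4 was 0.81, and SH replicate 3, a poor library, was at 210.2 against 217.8 in SH replicate 5. Monocarboxylate transporters Slc16a8 and Slc16a12 rose by 1.77 and 1.39. The anion exchanger Slc4a2 (1.03), the carbonic anhydrase Car12 (0.83), the thyroid hormone transporter Slco1c1 (0.35) and the sodium pump regulator Fxyd1 (0.39) rose by less and were already abundant in poor libraries, with medians of 796.7 for Slc4a2, 904.7 for Car12, 1348 for Slco1c1 and 381.6 for Fxyd1. From a list of 31 transport genes of the choroid plexus that were tested, 16 were higher and none was lower, against 1.14% higher over all genes, and the median log2 difference was 0.49. Without 8 genes that owed their place to rich libraries, 8 of 23 were higher and the median was 0.33. Slc12a2, the sodium potassium chloride cotransporter, did not pass, with counts between 2377 and 3036 in rich and between 1371 and 2891 in poor libraries (log2 difference 0.39 ± 0.12, adjusted p = 0.232).

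Secreted proteins and secreted or shed enzymes made up 15 of the genes that rose. Enpp2, or autotaxin, which makes lysophosphatidic acid, was the most abundant of the 84, with counts between 11892 and 35080 in rich libraries (median 23445) and between 2580 and 6595 in poor ones (median 3324). Its log2 difference was 2.71 ± 0.25 (adjusted p = 1.17e-05) and the groups did not overlap. Oligodendrocytes also make Enpp2, and their part in its level was not tested. The median log2 difference of 24 oligodendrocyte genes, Enpp2 included, was -0.14, and 2 of them were above 0. The coagulation factor F5 was between 360.8 and 1765 in rich libraries (median 1284) and between 28.7 and 207.8 in poor ones (median 48.2), a log2 difference of 4.22 ± 0.40. Ecrg4, a secreted peptide precursor, rose by 3.76 ± 0.46, Sostdc1, an inhibitor of BMP and Wnt signals, by 2.90 ± 0.31, and the angiotensin converting enzyme Ace by 2.65 ± 0.26.

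The growth factor Igf2 was between 1438 and 3752 in rich libraries (median 2616) and between 657.2 and 1524 in poor ones (median 830.3), a log2 difference of 1.49 ± 0.22 (adjusted p = 0.00109). The groups overlapped, because SH replicate 3, a poor library, was at 1524 and SH replicate 5, a rich one, at 1438. Igf2 is also made by meninges, and the summed level of a list of 17 meningeal and fibroblast genes that holds Igf2 was highest in SH replicate 3, at 18026 against 9462 to 15647 in rich libraries. Of that list 1 gene, Igf2, passed, against 1.14% of all genes, from which nothing is read about the list, and the part of the meninges in the level of Igf2 was not tested. Igfbp2, which binds insulin-like growth factors, rose by 1.54 ± 0.21 without overlap, and Lbp, which binds lipopolysaccharide, by 2.18 ± 0.28. From a list of 24 secreted products of the choroid plexus, 10 were higher and none was lower, with a median log2 difference of 0.44. Without 3 genes that reached the limit of 40 through rich libraries, 7 of 21 were higher, against 1.14% over all genes, and the median was 0.33. Trf (transferrin), Apoe and Cp (ceruloplasmin), which other brain cells also make, had log2 differences of 0.06, 0.02 and 0.03 and did not pass.

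Receptors, membrane proteins and epithelial genes formed the third large set. Tmem72, a membrane protein of kidney and choroid plexus, was between 279.7 and 1313 in rich libraries (median 846.0) and between 11.9 and 64.7 in poor ones (median 27.3), a log2 difference of 4.80 ± 0.34. Cldn2, the claudin of leaky tight junctions, was between 162.2 and 481.0 (median 367.6) against 3.86 to 38.3 (median 11.7), a difference of 4.61 ± 0.36. Both were without overlap. Kl, the co-receptor of FGF23, was between 1420 and 3503 (median 3065) against 483.6 to 859.1 (median 568.2), a difference of 2.15 ± 0.19 (adjusted p = 6.91e-06). The prolactin receptor Prlr rose by 2.66 ± 0.28 and the leptin receptor Lepr by 1.59 ± 0.26, both without overlap.

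Otx2, the homeobox factor that choroid plexus needs to form, was between 107.6 and 318.8 in rich libraries (median 229.1) and between 9.72 and 133.7 in poor ones (median 28.8). IH replicate 5, at 133.7, was above the 107.6 of SH replicate 2, so that the groups overlapped. The log2 difference was 2.42 ± 0.43. The keratin Krt18 (2.14), the claudin Cldn1 (1.71), the retinol dehydrogenase Rdh5 (1.75) and the cell cycle inhibitor Cdkn1c (1.47) also rose. From a list of 26 regulators, receptors and epithelial genes, 14 were higher and none was lower, with a median log2 difference of 1.09. Without 5 genes that the rich libraries had brought to the limit of 40, 9 of 21 were higher, against 1.14% over all genes, and the median was 0.73.

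The upstream sequences of Tmem72 and Abca4 are shown. Tmem72 was taken as a gene with a very large difference, and Abca4 because its window holds the letters marked below. The match in Abca4 is therefore no finding in a window chosen without regard to it. In both genes the 250 bases before the start of the GENCODE canonical transcript touch no annotated exon. They were read from GRCm39, 5′ to 3′ on the strand of the gene, at chr6:116693885-116694134 (minus strand) for Tmem72 and chr3:121837842-121838091 (plus strand) for Abca4. Capitals mark the core letters bound by OTX2, TAATCC or its reverse complement GGATTA, found at -41 from the start of Abca4 and not in the window of Tmem72.
Tmem72: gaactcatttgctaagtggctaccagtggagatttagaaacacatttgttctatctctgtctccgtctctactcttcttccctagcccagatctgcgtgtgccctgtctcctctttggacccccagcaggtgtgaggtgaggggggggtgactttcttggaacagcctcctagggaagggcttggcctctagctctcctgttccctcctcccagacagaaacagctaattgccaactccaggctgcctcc
Abca4: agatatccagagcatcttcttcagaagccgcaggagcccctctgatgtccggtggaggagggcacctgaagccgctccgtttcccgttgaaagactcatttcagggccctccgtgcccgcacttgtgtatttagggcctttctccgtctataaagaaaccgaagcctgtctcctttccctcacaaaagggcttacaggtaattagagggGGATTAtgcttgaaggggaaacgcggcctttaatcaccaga
Over both strands these 6 letters were in the windows of 4 of the 84 genes (4.76%), namely Abca4, Cd63, Cpt1a and Mfrp, against 449 of 7214 tested genes with a window (6.22%). They were in 2 of the 30 genes (6.67%) whose median in poor libraries was at or under 20% of that in rich ones. The letters GTTGCC or GGCAAC, part of the site of RFX factors, were in 6 of the 84 (7.14%) and in 4 of these 30 (13.3%), namely Ace, Kcne2, Otx2 and Rbm47, against 708 of 7214 (9.81%). A match is a description of letters and not a bound site.

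Matrix genes that rose included collagens and basement membrane proteins. Col8a1, a network-forming collagen, was between 125.7 and 622.4 in rich libraries (median 397.2) and between 5.42 and 52.2 in poor ones (median 22.3), a log2 difference of 3.92 ± 0.42 without overlap. Col8a2 rose by 2.39 ± 0.33. Col4a3 and Col4a4, the collagen IV chains that epithelia such as the kidney glomerulus use, rose by 2.76 ± 0.27 and 1.74 ± 0.25, and Col9a3 by 1.94 ± 0.21. The basement membrane proteins Nid2 and Frem1 rose by 1.10 ± 0.17 and 1.02 ± 0.17. From a list of 69 matrix and stroma genes, 8 were higher and none was lower, with a median log2 difference of 0.12. When 3 genes brought to the limit of 40 by rich libraries were left out, 5 of 66 were higher, against 1.14% over all genes, and the median was 0.11. The summed level of the list overlapped, at 31571 to 45345 in rich and 32691 to 46701 in poor libraries, with control replicate 1, a poor library, at the top.

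Drc7, a subunit of the dynein regulatory complex of motile cilia, was the only 1 of 51 listed cilia genes that passed. This share is near the 1.14% of all genes, and nothing is read from it about cilia genes as a group. The median log2 difference of the list was 0.12. Drc7 was between 141.2 and 557.3 in rich libraries (median 375.0) and between 27.9 and 152.4 in poor ones (median 81.2). The groups overlapped, since IH replicate 5 was at 152.4 and SH replicate 5 at 141.2, and the log2 difference was 2.32 ± 0.33 (adjusted p = 0.000882). Outside the list, Mycbpap, a protein linked to sperm and cilia (1.34), and Gmnc, which starts the program of multiciliated cells (0.83), also rose. Cfap52 (0.93 ± 0.26, adjusted p = 0.158) and Dnah6 (0.77 ± 0.27, adjusted p = 0.453), parts of the motile axoneme, did not pass. Foxj1, the main factor of motile cilia, was highest in a poor library, IH replicate 5, at 434.2, against 181.3 to 295.7 in rich libraries.

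**Figure D3:**
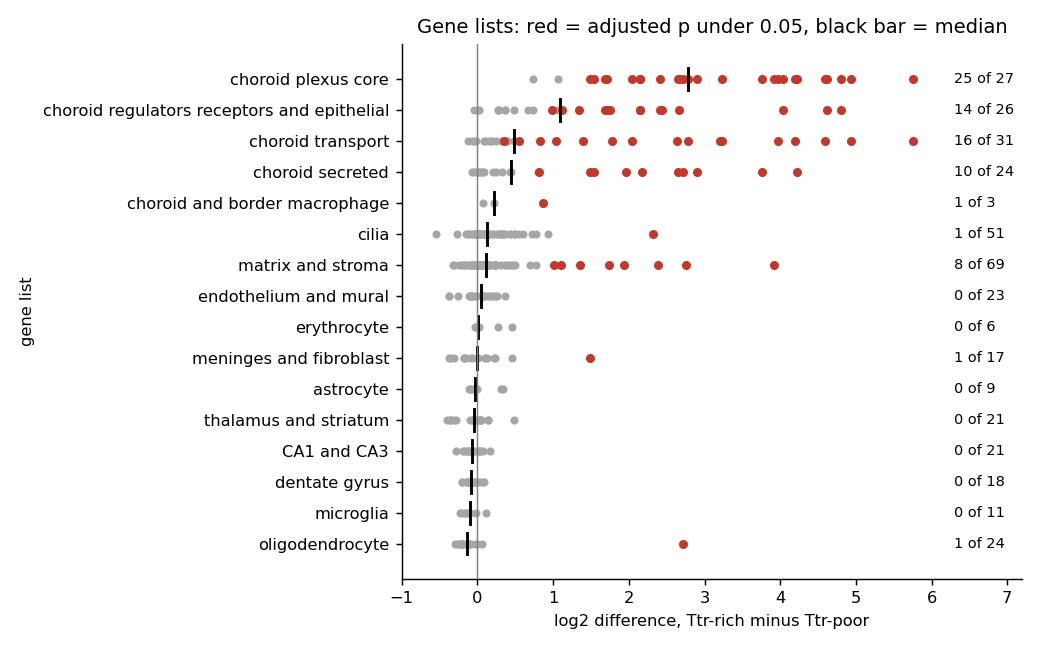
Log2 difference between rich and poor libraries of each tested gene (points) in 16 gene lists, with genes that passed the test in red and list medians as black bars. The bar of the 27 core markers is at 2.78, and it is 2.15 for the 13 of them that did not need rich libraries to reach the limit of 40. The lists of neurons, glia and vessels have medians between -0.14 and 0.04.

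Markers of other cells were examined in the same way. With 1.14% of all genes higher, a list of this size would hold few or no called genes in any case, and the counts are given as values. None passed among 18 genes of the dentate gyrus (median log2 difference -0.09), 21 of CA1 and CA3 (-0.07), 21 of thalamus and striatum (-0.04), 9 of astrocytes (-0.03), 11 of microglia (-0.10), 23 of endothelium and mural cells (0.04) and 6 of erythrocytes (0.01). Of 24 oligodendrocyte genes 1 passed, Enpp2, and their median of -0.14 was the lowest of the 16 lists. For each of these lists the summed level overlapped between rich and poor libraries. Of 3 tested genes of border macrophages, Dab2, an endocytic adaptor, rose by 0.86 ± 0.14 (adjusted p = 0.00336), and the mannose receptor Mrc1 did not pass (0.07). Several genes stand in more than 1 list. The transport list shares 8 tested genes with the core markers, the secreted list 7, and the list of regulators, receptors and epithelial genes 11.

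C1qtnf5, a secreted protein of the retinal pigment epithelium and other tissues, was the only gene that was lower. It was between 15.2 and 63.7 in rich libraries (median 50.2) and between 83.8 and 178.7 in poor ones (median 121.6). The rich libraries were all below the poor ones, with control replicate 4 the lowest of 14, and the log2 difference was -1.38 ± 0.29 (adjusted p = 0.0231). C1qtnf5 (GRCm39 chr9:44018524-44020484, plus strand) lies wholly inside Mfrp (chr9:44013026-44020484, plus strand) in the GENCODE annotation, and 1961 of its 1961 exonic bases are shared with exons of Mfrp. Mfrp, a membrane protein with a frizzled-like domain, moved the other way. It was between 460.1 and 1659 in rich libraries (median 1072) and between 41.7 and 120.1 in poor ones (median 67.8), a log2 difference of 4.03 ± 0.28 (adjusted p = 1.64e-06). How reads on the shared bases were divided between the genes is uncertain, and its part in the lower count of C1qtnf5 was not tested. The call of C1qtnf5 was lost in the IH and SH libraries alone (-0.997, adjusted p = 0.0726) and without SH replicate 2 (-1.34, adjusted p = 0.0510) or SH replicate 4 (-1.35, adjusted p = 0.0889). It was also lost at a Ttr limit of 20000 (-1.20, adjusted p = 0.167) and with the replicate number as a block (-1.56, adjusted p = 0.0790).

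**Figure D4:**
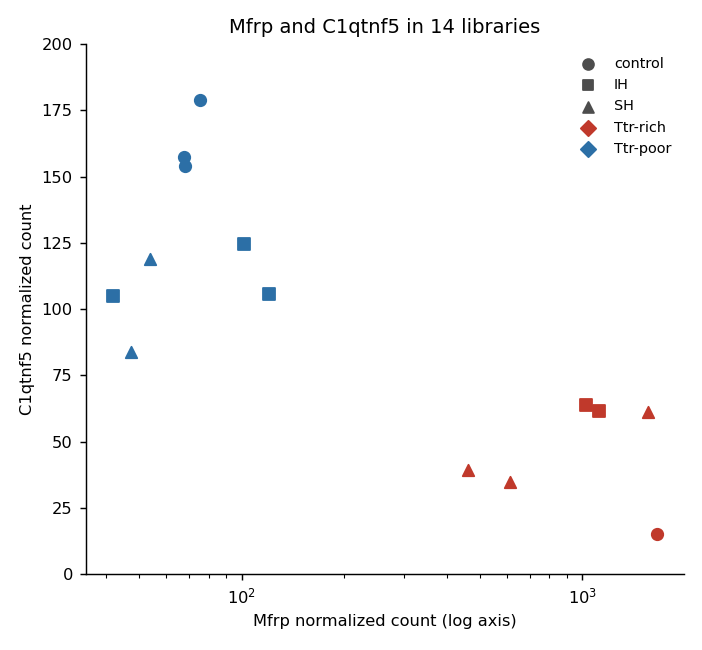
Normalized count of C1qtnf5 against that of Mfrp (log axis) in the 14 libraries, with the oxygen group as the shape and rich or poor as the color. Rich libraries lie at the lower right, with Mfrp at or above 460.1 and C1qtnf5 at or under 63.7.

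The genes whose levels were most like that of Ttr were ranked by the Pearson correlation of log2 normalized counts after subtraction of the group means, over 14 libraries that share their depth between genes. The first 10 were F5 (0.988), Sostdc1 (0.986), Slc4a5 (0.984), Mfrp (0.981), Cldn2 (0.979), Kcne2 (0.978), Enpp2 (0.975), Col9a3, Abca4 and Lbp (each 0.972). Of these, F5, Slc4a5, Cldn2 and Kcne2 were tested only with the help of rich libraries. The correlation was above 0.9 for 48 genes, all of which were among the 84. The 84 had been chosen by a division that Ttr itself set in the same libraries, so this overlap follows in large part from the choice. IH replicate 5, the poor library with the highest Ttr count, was the highest poor library for 46 of the 84 (54.8%), against 16.5% of all genes tested. It also stood apart from the other IH libraries in lists of dentate gyrus, oligodendrocyte, and thalamus and striatum genes, whose part in this count was not tested.

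The genes differed in how much signal was left in poor libraries. The median of the poor libraries was between 1.79% and 86.9% of that of the rich ones. It was at or under 20% for 30 genes, up to 50% for another 30 and above 50% for 24, such as Slco1c1 and Cd164, a sialomucin of lysosomes. After subtraction of the poor medians, the 30 genes of the first kind gave a median of 7.31 counts per 1000 Ttr counts in control replicate 4, 9.22 and 9.24 in IH replicates 1 and 4, and 11.7, 10.0 and 11.0 in SH replicates 1, 2 and 5. Control replicate 4 was lowest for 15 of the 30 genes and highest for 0 of them. The highest library exceeded the lowest by 1.33 to 4.07 times (median 1.74). Ttr, the divisor, was highest in control replicate 4 of all libraries, so a low ratio there is favored by the way it was computed. Many of the 30 genes, such as Slc4a5, Kcnj13 and F5, were tested only with the help of rich libraries. Genes of 1 library are not replicates of it. With 1 rich control library these ratios have no replicate check and were not tested.

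**Figure D5:**
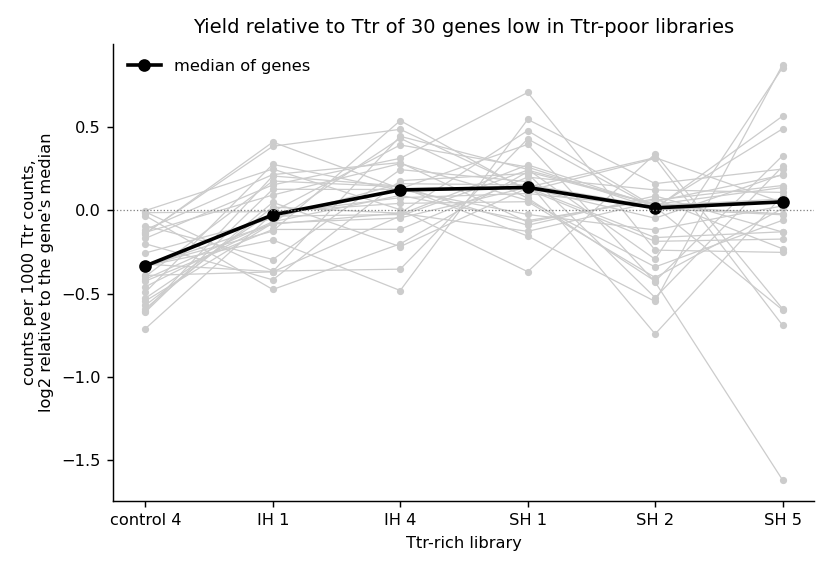
Counts per 1000 Ttr counts of 30 genes in the 6 rich libraries, as log2 relative to the median of each gene (gray lines), with the median of the genes in black. The black line is lowest in control replicate 4, at 7.31 counts per 1000 Ttr counts before the log2 scaling. Ttr, the divisor, was highest in this library, which favors a low ratio there.

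The oxygen groups did not differ detectably in the summed level of the core markers. This sum took all 27 tested core markers, with the 14 that were set aside above, and is not the sum of 13 given there. It was 21001 ± 28212 (SD, n = 4) in control, 22917 ± 19527 (n = 5) in IH and 24740 ± 20575 (n = 5) in SH libraries, so that the SD was near or above the mean. Enpp2 alone gave between 36.9% and 57.3% of the sum in each library. In exact permutation tests on the log2 scale (2-sided, 3 comparisons, n = 4 or 5), the difference was 0.45 between IH and control (p = 0.714), 0.65 between SH and control (p = 0.460) and -0.20 between IH and SH (p = 0.825), and the adjusted p was 0.825 for each. Without control replicate 4 the differences were 1.20 for IH and 1.39 for SH against control, with adjusted exact p of 0.268 and 0.161. With Enpp2 left out of the sum, the differences were 0.33, 0.47 and -0.14, and the adjusted exact p was 0.841 for each.

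The oxygen groups were also compared with and without the rich or poor term. The 85 genes had been chosen by that term, so a smaller standard error with it follows from the choice and is given as a description. Their median standard error in the comparison of IH with control was 0.56 on the log2 scale without the term and 0.30 with it, against 0.12 both times over all genes. In the comparison of SH with control it was 0.56 and 0.30, and in that of IH with SH 0.52 and 0.29. The median log2 difference of the 85 genes was 0.14 without and 0.09 with the term between IH and control, 0.17 and -0.17 between SH and control, and 0.00 and 0.23 between IH and SH. The first 2 comparisons share the control libraries.

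Between IH and control, 802 genes were called without the term (10.9%) and 699 with it (9.53%), with 677 in both. Of the 85, 0 were called without and 2 with the term, Fxyd1 and Cd164. Between SH and control, 1514 genes were called without (20.6%) and 1270 with the term (17.3%), 1202 in both, and 2 of the 85 were called each time, Cd63, a tetraspanin of endosomes, and Cd164. Between IH and SH, 174 genes were called without (2.37%) and 140 with the term (1.91%), 131 in both, and none of the 85 either time. These shares hold only within the deposited genes, which the authors had selected. At an absolute log2 difference above 0.58 and an unadjusted p under 0.05, none of the 85 passed in any comparison without the term, where 2.69% of all genes passed between IH and control, 2.71% between SH and control and 0.981% between IH and SH. With the term, 1 of the 85 passed between IH and control (Gmnc), against 2.74% of all genes. Between SH and control 5 passed (Kcne2, Col4a3, Col9a3, Igfbp2 and Ltc4s, the leukotriene C4 synthase), against 2.78%, and between IH and SH 5 passed (Cldn2, F5, Col9a3, Lbp and Ltc4s), against 1.09%.

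Whether the difference between rich and poor libraries varied with the oxygen group was examined with an interaction term in edgeR. At an adjusted p under 0.05, 0 genes were called in any of 3 contrasts. At an unadjusted p under 0.05, the contrast of SH with IH held 186 genes (2.54% of all tested), among them 1 of the 85, Slc13a4. The contrast of IH with control held 160 genes (2.18%), among them 10 of the 85, such as Aqp1, Cldn2 and C1qtnf5. The contrast of SH with control held 164 (2.24%), among them 18 of the 85, such as Igf2, Aqp1 and Col8a1. In both contrasts with control the share of the 85 at this limit was above that of all genes, and there the rich side of the control group was control replicate 4 alone. Dependence on the group was therefore neither called nor shown to be absent.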

How the data were processed

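Hippocampal RNA of 14 samples (4 control, 5 IH, 5 SH) was sequenced. Per the submitters' processing notes, fastp 0.23.4, HISAT2 2.2.1 and StringTie 2.2.1 were used with GRCm39. The deposited values are estimated counts per gene, which the authors did not normalize between samples. The authors had kept genes with a signal above a low limit of 40 and different from the control group. Non-whole values of 10 genes were rounded. The libraries, gene lists and tests were chosen with earlier results of these data known, and roles of genes were written after their values were seen.

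Counts of the 7338 genes with a mean of at least 40 in every oxygen group were scaled by TMM and fitted with edgeR 4.0.16 (R 4.3.3), with DESeq2 1.42.0 as an alternative. The standard error is the log2 difference divided by the square root of F. The fit was run on simulated counts with known changes as a check of the code, which lends no support to the results. Correlations used a pseudocount of 0.5. The sources do not say outright that each library is a separate mouse, so p-values measure only the spread between libraries, which may be technical.

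Named genes were the 15 with the largest rise and up to 10 with the largest fall among those with an adjusted p under 0.05, the 10 most like Ttr, the core markers and up to 8 of each list with the smallest p. Others named were chosen after their values were seen.

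Replicate numbers were not treated as pairs: deviations from the group means of 13 same-numbered pairs correlated between -0.304 and 0.457, above 0.1 in 6. Libraries of a group differed beyond sampling noise (chi-square per degree of freedom at least 8.96 over 26 pairs). Alternatives were other scalings and filters, Ttr limits of 5000 and 20000, log2 Ttr as a number, no oxygen term, IH and SH libraries only, the replicate number as a block and each library left out. The fit without control replicate 4 on the same genes, the core sum without Enpp2 and the interaction were added after seeing the data. Promoter windows came from GRCm39 and GENCODE.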

Additional observations from a re-analysis of the deposited data

Results flagged for a closer look

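In 60 checks of a gene or list within 1 oxygen group, 11 found a library far from the others of its group. Chance alone gives this in about 1 of 20 groups, and the checks share libraries and genes.

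Control replicate 4 stood apart in 7 of them. It was the only rich library of its group by the Ttr count, so that its distance in Ttr and in genes that follow Ttr was fixed by the division, and the chance rate has no bearing on these 7. Its normalized Ttr count was 77671, against 264.2 to 1240 in the other control libraries. The sum of all 27 tested core markers was 63315 in it, against 6370 to 7322. The summed lists of transport genes (36599, against 21132 to 22449), secreted products (112513, against 64153 to 69489) and regulators, receptors and epithelial genes (23988, against 9676 to 10180) were also far above the rest. Mfrp was at 1659 in this library, against 67.4 to 75.3, and C1qtnf5 at 15.2, against 153.8 to 178.7.

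IH replicate 5 stood apart in lists of other cells. Its summed dentate gyrus genes were at 34682, against 24844 to 26982 in the other IH libraries, its oligodendrocyte genes at 240000, against 130171 to 157348, and its thalamus and striatum genes at 12858, against 8597 to 9600. SH replicate 5 was at 12333 for thalamus and striatum, against 9161 to 10053 in the other SH libraries.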

How the results depend on the processing

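Of 87 genes followed, the 85 and the other core markers, none changed its direction in any alternative that tested it, and 27 kept the same call in all of them. Several of the 27, such as Slc4a5, Kcne2 and Tmem72, were not tested without control replicate 4, the alternative with the fewest calls. The count of 84 higher genes became 32 in the IH and SH libraries only, 30 with the replicate block and 41 without control replicate 4 on the same genes, and 24 to 100 with each library left out (24 without control replicate 4, 100 without IH replicate 5). The 1 lower gene was lost, leaving 0, at a Ttr limit of 20000, in the IH and SH libraries only and with the replicate block, and the count was 0 to 1 with a library left out.

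With a library left out, 10 to 26 of the core markers were higher, 4 to 18 transport, 7 to 11 secreted, 5 to 16 regulator and epithelial, 1 to 3 cilia and 4 to 11 matrix genes, and the low end was without control replicate 4 for each list except cilia. In the IH and SH libraries only, 9 transport, 7 regulator and epithelial and 4 matrix genes were higher. The replicate block gave 10 transport, 6 secreted, 8 regulator and epithelial, 0 cilia and 4 matrix genes. Without control replicate 4 on the same genes there were 10 transport and 8 regulator and epithelial genes. With log2 Ttr as a number, 5 cilia genes passed. With the block, 55 of the 85 calls were lost and none of the 85 changed direction. The replicate numbers share no known pairing. The causes of these changes were not tested.

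With a library left out, genes called with the rich or poor term numbered 313 to 782 between IH and control, 459 to 1555 between SH and control (459 without control replicate 4) and 37 to 155 between IH and SH (37 without IH replicate 1). Without the term they numbered 386 to 979, 906 to 1743 and 88 to 178. The log2 difference of the summed core markers was 0.089 to 1.20 for IH and 0.24 to 1.39 for SH against control, and -0.57 to 0.21 between IH and SH, where it turned to 0.081 without IH replicate 2, 0.126 without IH replicate 3 and 0.213 without SH replicate 1.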

Other observations

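Among 418 genes under the limit of 40, 3 had rich libraries that were all above the poor ones, against 0.695% of the genes tested, and nothing is read from this count. Steap1, a metalloreductase of the choroid plexus list, had raw counts between 54 and 140 in rich libraries (median 68) and between 0 and 20 in poor ones (median 5). Pon1, a paraoxonase like Pon3, had 6 to 16 in rich libraries and 0 in all poor ones, and Dmgdh, the dimethylglycine dehydrogenase, 14 to 36 against 4 to 14, with the order set after scaling.

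Among the genes tested, 4 did not overlap and were not called by edgeR. Tbc1d2, a regulator of Rab proteins, was higher in rich libraries by 0.68 ± 0.16 on the log2 scale (adjusted p = 0.0656), and Phldb2, a protein of the cell cortex, by 0.32 ± 0.10 (adjusted p = 0.270). Ell3, an elongation factor, had a log2 difference of -0.30 ± 0.14 (adjusted p = 0.854) and Coil, the coilin of Cajal bodies, of -0.23 ± 0.07 (adjusted p = 0.299).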
